A study of Homo sapiens with 6 samples.

Results

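The urokinase system is followed here through 6 genes, PLAU, PLAUR, PLAT, SERPINE2, ANXA2 and LRP1, in MCF-10A cells with and without added MBD2. Every probe set whose platform annotation gave exactly 1 symbol, that of 1 of these genes, was kept, which left 16 of the 41091 probe sets with 1 symbol (54675 on the array). PLAU had 2 probe sets, PLAUR 3, PLAT 1, SERPINE2 2, ANXA2 4 and LRP1 4. MCF-10A is an immortalized, nontransformed line of human breast epithelial cells, and both groups were grown in a mammary epithelial medium with supplements. The MBD2 group (3 arrays) was infected with a lentivirus packaged in HEK293 cells that carries MBD2, a protein that binds methylated DNA. The control group (3 arrays) is labelled control. The series record calls these cells non-infected and the arrays of each group technical replicates, whereas the methods of the study name an empty control virus and biological replicates. Infection itself and MBD2 cannot be told apart if the controls were not infected. No source states that each array had its own culture, and the p-values then reflect array-to-array spread alone, which may be technical. The plasmid is named without its promoter, and whether the infected cells were a clone or a pool is not given in the sources used here.

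Urokinase (PLAU) is a secreted serine protease that turns the zymogen plasminogen into plasmin, which degrades fibrin and other matrix proteins and activates further proteases and growth factors. Its receptor PLAUR, held in the membrane by a lipid anchor, concentrates this activity at the cell surface, and tissue plasminogen activator (PLAT) is the other main activator. Secreted serpins such as SERPINE2 block the activators, the endocytic receptor LRP1 removes the inhibited complexes from the surface, and annexin A2 (ANXA2) binds plasminogen and PLAT there. The system is best known in breast epithelium for its part in cell migration and tumour invasion.

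The values are log2 summaries of hybridization intensity, 1 per probe set and array, so a difference of 1 is a 2-fold change and levels of different probe sets cannot be ranked. Probe sets for a bacterial transcript that was not added lay between 2.93 and 3.67, and a value under 4.17 is called near background below. The MBD2 transcript at probe set 202484_s_at read 8.92, 9.03 and 9.68 on control arrays 1, 2 and 3 and 12.17, 11.72 and 12.50 on MBD2 arrays 1, 2 and 3. All MBD2 arrays lay above all control arrays, with a log2 difference of 2.92 (standard error 0.28, limma adjusted p = 0.0157), while the other 3 probe sets of MBD2 differed by -0.08, -0.03 and 0.11. Of these, 214396_s_at and 214397_at were near background on every array, and 202485_s_at read from 4.47 to 4.83. The arrays of a group were unequally alike. Control arrays 1 and 2 differed over 2-fold at 5 of 19775 genes and MBD2 arrays 2 and 3 at 95, against 1572 between control arrays 1 and 3 and 2877 between MBD2 arrays 1 and 2. Control array 3 and MBD2 array 1 thus stood apart from the rest of their groups. MBD2 array 1 differed over 2-fold from control arrays 1 and 2 at 1620 and 1477 genes. That is fewer than from MBD2 arrays 2 and 3 (2877 and 2565). Values without control array 3 and MBD2 array 1 are given where leaving both out changed a call. This covers the members and the genes named for each pathway list. Such values are not given for other genes. MBD2 arrays 2 and 3 also had lower hybridization controls (9.94 and 10.01, against 10.96 to 11.33 on the other arrays) and the highest mitosis markers, whose median over 21 genes lay 1.69 and 1.51 above the control mean, against -1.05 to 0.53 on the others. The 3′ minus 5′ difference of the quality probe sets was smallest there too, at 1.49 and 1.52 for GAPDH (1.83 to 2.52 on the others) and 3.45 and 3.44 for ACTB (3.62 to 4.57). The part of these differences in the results below was not tested. All 7 measured basal markers were well above background (8.04 to 14.37), with a median log2 difference of -0.41 and 0 past the test. The summed level of the 9 luminal markers ran from 10.80 to 11.05 in control and from 11.15 to 12.26 in MBD2 arrays. Of these 1 passed, the keratin KRT8, which rose by 2.02 on the log2 scale (limma adjusted p = 0.0397). The keratin KRT18 differed by 1.66 (limma adjusted p = 0.194). The rest did not share this rise: GATA3, ESR1, TFF1, KRT19, FOXA1 and PGR differed by -0.51, -0.32, -0.22, -0.08, -0.05 and -0.02. XBP1 differed by 0.06, and the median of the 9 was -0.05. The leukocyte marker PTPRC and 4 of the 8 endothelial markers (CDH5, ERG, KDR and TIE1) were near background on every array, and the other endothelial markers, CLDN5, PECAM1, TEK and VWF, lay between 4.61 and 6.14, with 0 of the 8 past the test. Of the 10 fibroblast markers, whose summed level ran from 10.4 to 11.8 in control and from 11.2 to 13.6 in MBD2 arrays, 0 passed the test. DCN, COL3A1, LUM and FAP were highest on MBD2 array 1, at 12.57, 8.90, 9.63 and 11.77. On MBD2 arrays 2 and 3 DCN read 7.59 and 8.54. The other fibroblast markers were not highest on MBD2 array 1. Of the 7 leukocyte markers, whose summed level ran from 10.4 to 11.1 in control and from 8.98 to 9.54 in MBD2 arrays, 1 passed, CD14, which fell.

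None of the 16 probe sets passed the test between MBD2 and control (limma, adjusted p under 0.05 over all 41091 probe sets and a change of at least 1.5-fold), where 0.898% of all probe sets were called higher and 0.978% lower. The 3 PLAUR probe sets had differences of -0.83 to -1.05, the brighter SERPINE2 probe set one of 2.20, the dimmer PLAU probe set one of 1.04 and the 3 bright ANXA2 probe sets 0.45 to 0.50. PLAT and LRP1 had smaller differences. The lowest adjusted p of the 16 was 0.135, at ANXA2. At an unadjusted p under 0.05 with any fold, 4 were higher and 3 lower, where 8.49% and 8.05% of all probe sets were. With the 1.5-fold condition added, 1 was higher (PLAU) and 3 lower (PLAUR), against 5.84% and 4.18% of all. The groups did not overlap at 7 probe sets, 6 higher and 1 lower in MBD2 arrays, where 10.4% and 12.3% of all probe sets were so separated. These 7 are not independent, since 3 of them are ANXA2. The median log2 difference was 0.18 over the 16 probe sets and -0.0047 over all probe sets. With 1 probe set a gene, the brightest, 0 of the 6 genes passed. In RNA from a whole culture, fewer cells that express a gene and less RNA per cell cannot be told apart.

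**Figure D1:**
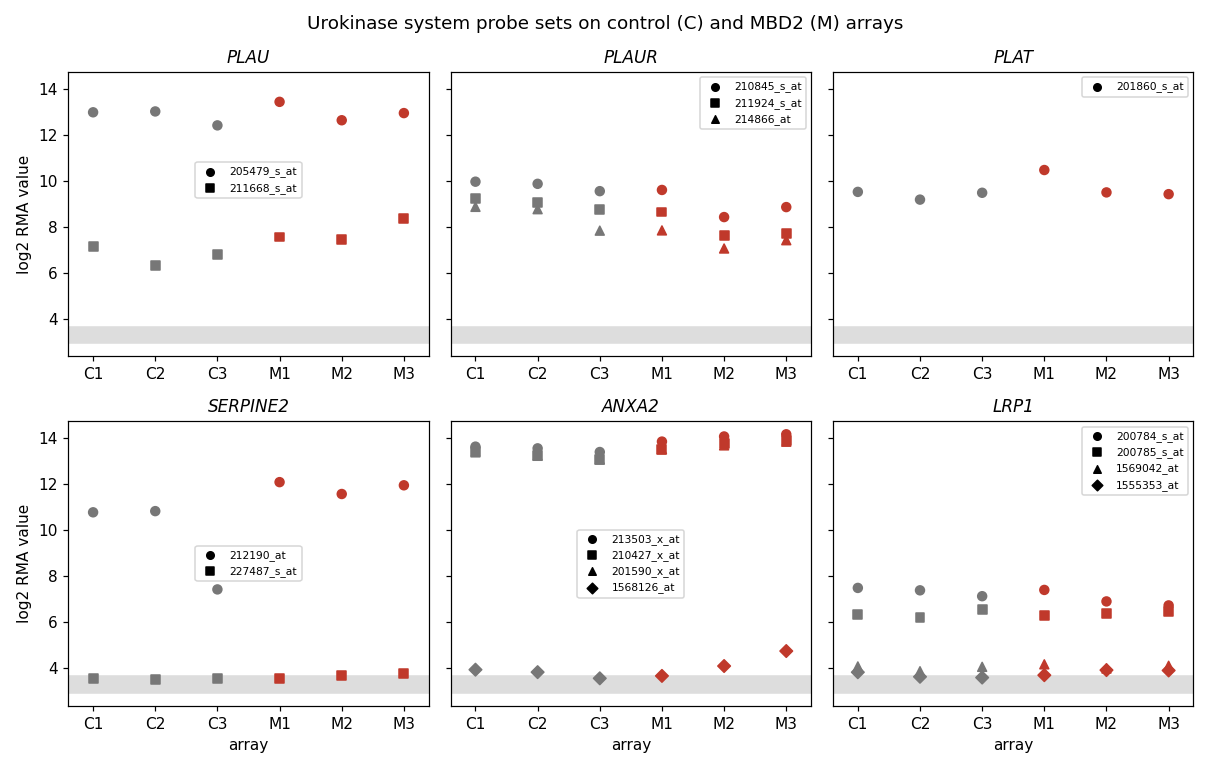
Log2 value of each of the 16 probe sets (vertical axis) on the control arrays (C1 to C3, in grey) and the MBD2 arrays (M1 to M3, in red), 1 panel per gene, 1 symbol shape per probe set. The grey band, 2.93 to 3.67, is the level of an absent bacterial transcript; PLAUR lies lower on M2 and M3 at every probe set, and the SERPINE2 value of C3 (7.43) is far under the other 5.

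**Figure D2:**
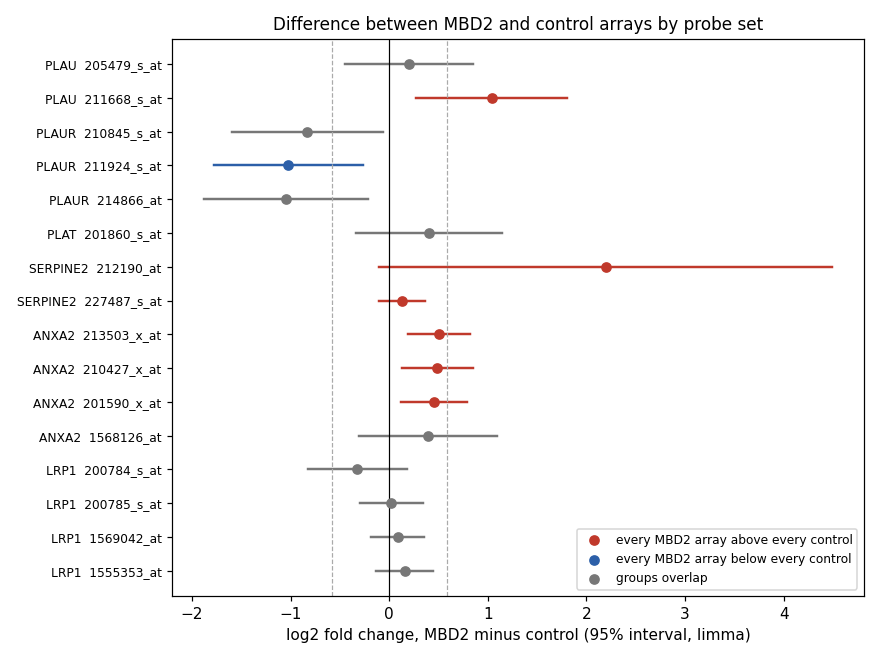
Log2 difference, MBD2 minus control (horizontal axis), of the 16 probe sets with limma's 95% confidence interval as the bar, n = 3 arrays per group, dashed lines at a 1.5-fold change. Red and blue mark probe sets whose groups do not overlap. The intervals of the 3 PLAUR probe sets lie under 0, those of 211668_s_at of PLAU and of the 3 bright ANXA2 probe sets above 0, and the widest belongs to 212190_at of SERPINE2.

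PLAU encodes urokinase itself. Its brighter probe set, 205479_s_at, read 12.98, 13.02 and 12.41 in control arrays and 13.44, 12.64 and 12.95 in MBD2 arrays. The groups overlapped, with the lowest value on control array 3 and the highest on MBD2 array 1, and the log2 difference was 0.20 (95% interval -0.44 to 0.85, limma adjusted p = 0.758). It changed sign, to -0.01, without MBD2 array 1, the highest of the 6, and to -0.21 with control array 3 left out as well. The dimmer probe set, 211668_s_at, read 7.13, 6.33 and 6.80 in control arrays and 7.56, 7.45 and 8.36 in MBD2 arrays. Here every MBD2 array lay above every control array, and control arrays 1 and 2, alike elsewhere, were 0.80 apart. The means were 6.75 ± 0.40 and 7.79 ± 0.49 (SD, n = 3 each), a log2 difference of 1.04 (95% interval 0.27 to 1.80, limma adjusted p = 0.189). Without control array 3 and MBD2 array 1 it was 1.17 and passed (limma adjusted p = 0.0206), in a fit that called 25.5% of all probe sets. The 2 probe sets thus gave different pictures of the same gene, and no test of the difference between them was made.

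PLAUR encodes the urokinase receptor, and all its probe sets were well above background on every array. Probe set 211924_s_at read 9.24, 9.06 and 8.74 in control arrays and 8.65, 7.62 and 7.71 in MBD2 arrays. The groups did not overlap, though control array 3 and MBD2 array 1 lay within 0.1 of each other at the edge between them. The mean was 9.01 ± 0.25 in control and 7.99 ± 0.57 in MBD2 arrays (SD, n = 3 each), a log2 difference of -1.02 (95% interval -1.78 to -0.27, standard error 0.31, limma adjusted p = 0.187) or 2.03-fold less.

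Probe set 210845_s_at of PLAUR read 9.96, 9.87 and 9.55 in control arrays and 9.60, 8.43 and 8.86 in MBD2 arrays, a log2 difference of -0.83 (95% interval -1.60 to -0.07, limma adjusted p = 0.268). MBD2 array 1 lay just above control array 3 there, so that the groups overlapped, and MBD2 arrays 2 and 3 lay under all controls. Probe set 214866_at read 8.87, 8.77 and 7.83 in control arrays and 7.85, 7.06 and 7.42 in MBD2 arrays, a log2 difference of -1.05 (95% interval -1.88 to -0.22, limma adjusted p = 0.212). The order of the arrays was alike at all 3 probe sets, with control arrays 1 and 2 the highest and MBD2 array 2 the lowest. Without MBD2 array 1 the adjusted p of limma was 0.0195 at 210845_s_at (log2 difference -1.15) and 0.00958 at 211924_s_at (-1.35), and these 2 passed the test, in a fit that called 13.5% of all probe sets. With control array 3 left out too, all 3 passed, with log2 differences of -1.28, -1.49 and -1.58, when 25.5% of all probe sets were called and each group was a near-identical pair. With control arrays 1 and 2 averaged and MBD2 arrays 2 and 3 averaged, so that each pair counted as 1 array, the adjusted p of the 3 ran from 0.861 to 0.885 and 0 probe sets of the whole table were called.

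**Figure D3:**
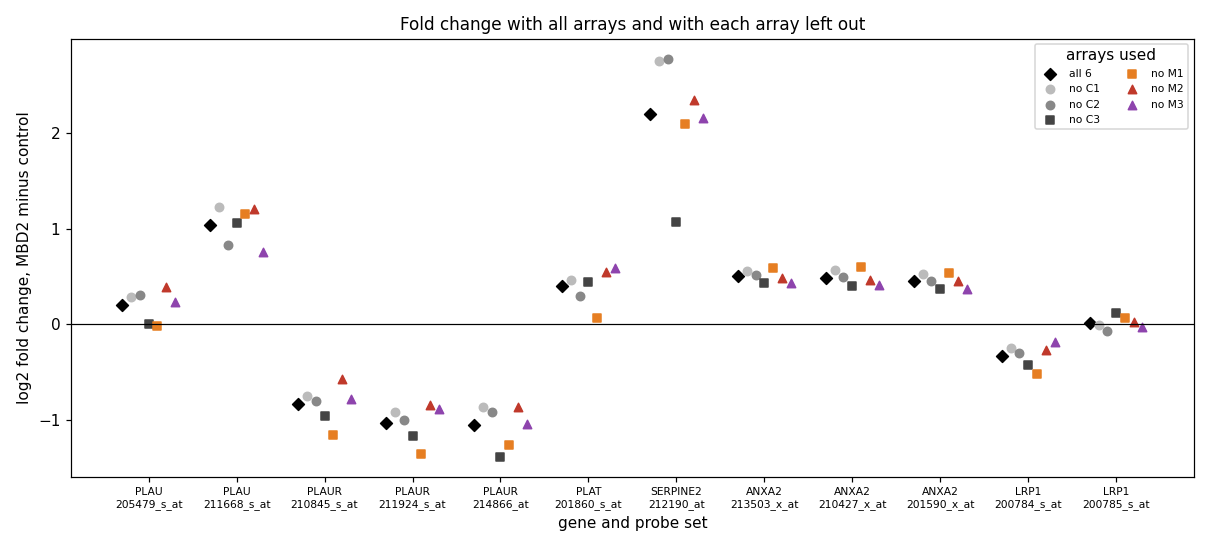
Log2 difference, MBD2 minus control (vertical axis), of the 12 probe sets above background in the fit of all 6 arrays and in the fits that leave out 1 array each. The PLAUR differences stay under 0 in every one of these fits, from -0.56 to -1.38, while SERPINE2 212190_at runs from 1.07 without control array 3 to 2.77.

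The windows before the transcription start of PLAUR and ANXA2 are printed because MBD2 binds methylated CpG dinucleotides, and because these 2 genes had probe sets that differed in opposite directions, though none passed the test. CpG dinucleotides are in capitals, 250 bases end at the base before the start, and the strand is that of the gene (RefSeq, GRCh38.p14). PLAUR lies on the minus strand at chr19:43670170-43670419 and ANXA2 on the minus strand at chr15:60397987-60398236.
PLAUR: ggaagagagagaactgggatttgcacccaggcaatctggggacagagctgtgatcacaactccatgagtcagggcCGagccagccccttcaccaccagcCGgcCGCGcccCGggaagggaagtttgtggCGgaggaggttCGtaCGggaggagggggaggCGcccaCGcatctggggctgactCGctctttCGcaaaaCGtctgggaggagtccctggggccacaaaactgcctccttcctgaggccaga
ANXA2: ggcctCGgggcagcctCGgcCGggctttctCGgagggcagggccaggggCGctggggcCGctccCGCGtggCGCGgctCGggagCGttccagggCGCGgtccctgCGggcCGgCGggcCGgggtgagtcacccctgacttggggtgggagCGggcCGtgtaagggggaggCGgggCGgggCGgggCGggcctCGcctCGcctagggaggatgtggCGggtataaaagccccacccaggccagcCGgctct
The PLAUR window holds 13 CpG dinucleotides and the ANXA2 window 28. Counted with the first 50 bases after the start, the numbers are 18 for PLAUR and 32 for ANXA2, 23 for LRP1, 5 and 28 for the 2 windows of PLAU and 8 and 31 for those of SERPINE2. All 35116 windows of 300 bases had a median of 14 and quartiles of 4 and 28. These counts describe the sequence and not its methylation, which was not analysed here.

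The sequence TGAGTCA, which the AP-1 factors of the FOS and JUN families bind, was searched on both strands of the same windows. It occurs in PLAUR and ANXA2 and in none of the other 5 windows of these genes, and 4.95% of all windows hold it. No window of PLAT was scanned, here or for the CpG counts. Both matches are shown in capitals within 30 bases, on the minus strand at chr19:43670337-43670366 and chr15:60398095-60398124.
PLAUR, motif from -186: tcacaactccaTGAGTCAgggccgagccag
ANXA2, motif from -127: gcgggccggggTGAGTCAcccctgacttgg
The GC box GGGCGG, bound by SP1, is present in 45.0% of windows and in 5 of these 7. It occurs 3 times in 1 PLAU window, 1 and 2 times in the SERPINE2 windows, 1 time in LRP1 and 3 times in ANXA2, where neighbouring matches share a base. The sequence TATAAA, in 11.5% of windows, occurs in the ANXA2 window alone. A match is no evidence of binding.

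PLAT encodes tissue plasminogen activator and had 1 probe set, 201860_s_at. It read 9.52, 9.18 and 9.48 in control arrays and 10.47, 9.50 and 9.42 in MBD2 arrays. MBD2 array 1 alone stood out, 1.01 above the mean of the other MBD2 arrays, which lay among the controls. The log2 difference was 0.40 (95% interval -0.34 to 1.14, limma adjusted p = 0.567), and 0.06 without MBD2 array 1.

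SERPINE2, the inhibitor also known as protease nexin-1, had the largest difference of the 16 probe sets and the widest error. Probe set 212190_at read 10.79, 10.84 and 7.43 in control arrays and 12.10, 11.58 and 11.96 in MBD2 arrays. All MBD2 arrays lay above all controls, and control array 3 differed from the mean of the other controls by -3.38. The means were 9.68 ± 1.95 and 11.88 ± 0.27 (SD, n = 3 each), a log2 difference of 2.20 (95% interval -0.10 to 4.49, standard error 0.94, limma adjusted p = 0.320). Without control array 3 it was 1.07 and the adjusted p of limma 0.0643, and with MBD2 array 1 left out as well 0.96 and 0.00124. The fit without both arrays called 25.5% of all probe sets. With the near-identical arrays averaged, the adjusted p of limma was 0.835. The second probe set, 227487_s_at, was near background on all 6 arrays (3.51 to 3.76) and differed by 0.13.

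ANXA2 had 3 probe sets near the top of the scale, whose names end in the mark for sequence shared with other transcripts. Probe set 213503_x_at read 13.64, 13.57 and 13.41 in control arrays and 13.86, 14.08 and 14.18 in MBD2 arrays. The groups did not overlap, with control array 3 the lowest and MBD2 array 3 the highest. The means were 13.54 ± 0.12 and 14.04 ± 0.16 (SD, n = 3 each), a log2 difference of 0.50 (95% interval 0.19 to 0.82, standard error 0.13, limma adjusted p = 0.135). Probe sets 210427_x_at and 201590_x_at gave differences of 0.49 and 0.45 (limma adjusted p = 0.186 and 0.189) with the same order of arrays, and all 3 lie under the 1.5-fold limit. Without MBD2 array 1 the first 2 had log2 differences of 0.59 and 0.59 with limma adjusted p of 0.0321 and 0.0442, and passed. That fit called 13.5% of all probe sets. The fourth, 1568126_at, was near background on 5 of 6 arrays and differed by 0.39 with overlapping groups.

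The signal of the ANXA2 probes can include that of its processed pseudogenes. The ANXA2P2 probe set 208816_x_at read 12.21, 12.10 and 12.08 in control arrays and 12.45, 12.67 and 12.87 in MBD2 arrays, a log2 difference of 0.53 (limma adjusted p = 0.134), close in size to that of ANXA2. ANXA2P1 and ANXA2P3 differed by 0.49 and 0.31 (limma adjusted p = 0.331 and 0.397), with overlapping groups. Gene and pseudogene signal were not separated, so the ANXA2 values are uncertain as a measure of that gene alone.

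LRP1, the endocytic receptor, had 4 probe sets. Probe set 200784_s_at read 7.50, 7.39 and 7.14 in control arrays and 7.41, 6.91 and 6.74 in MBD2 arrays, a log2 difference of -0.32 (95% interval -0.83 to 0.18, limma adjusted p = 0.493). MBD2 array 1 lay among the controls and MBD2 arrays 2 and 3 under all of them. Without both control array 3 and MBD2 array 1 the difference was -0.62 and passed the test (limma adjusted p = 0.00505). That fit called 25.5% of all probe sets. With the near-identical arrays averaged, the adjusted p of limma was 0.958. Probe set 200785_s_at, from 6.20 to 6.57, differed by 0.02, with a sign that changed under several settings. The other 2, 1569042_at and 1555353_at, were near background on at least 5 arrays and differed by 0.08 and 0.16.

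The rest of the pathway was measured at 1 probe set per gene, the brightest, in 7 lists with 82 of 87 genes measured. Of these, 3 rose (ENO1, ANXA5 and ANXA6) and 2 fell (ST14 and ETS2) at an adjusted p under 0.05 and 1.5-fold, where 1.25% of all genes were called higher and 1.5% lower, and 77 did not pass. The median log2 difference of the 82 was -0.05, and that of all genes -0.02. The 3 increases came from genes that are not activators or inhibitors of plasminogen, namely a glycolytic enzyme that also binds plasminogen and a pair of annexins.

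Among plasminogen, its receptors and the activators of pro-urokinase (11 measured, median -0.01), 1 rose and 1 fell. ST14 encodes matriptase, a membrane protease that activates pro-urokinase. It read 10.90, 10.43 and 10.48 in control arrays and 8.74, 8.03 and 8.11 in MBD2 arrays. The groups lay far apart, and the log2 difference was -2.31 (standard error 0.24, limma adjusted p = 0.0132), or 4.96-fold less. Over the mean of all ST14 probe sets it was smaller, at -1.56 (limma adjusted p = 0.0113). ENO1, enolase, had a log2 difference of 0.82 (standard error 0.13, limma adjusted p = 0.0366), from 12.35 ± 0.14 to 13.17 ± 0.13 (SD, n = 3 each), but 0.05 when probe sets with an ending for shared sequence were left out. Over the mean of all ENO1 probe sets it was 0.68 and did not pass (limma adjusted p = 0.101).

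The inhibitors (5 measured, median -0.09) had 0 genes past the test in either direction. The largest difference was that of SERPINI1, neuroserpin, at -0.76 (limma adjusted p = 0.415). It was -1.15 without control array 3, and without MBD2 array 1 as well it was -1.48 and passed (limma adjusted p = 9.3e-05), when 27.4% of all genes did. The partners of PLAUR in the membrane and matrix (15 measured, median 0.31) also had 0, with ITGA3, the integrin alpha 3 subunit, at 1.28 (limma adjusted p = 0.124). Without control array 3 the ITGA3 difference was 0.89 and passed (limma adjusted p = 0.0422). With MBD2 array 1 left out as well it was 0.95 and passed (limma adjusted p = 0.000685). The receptors related to LRP1 (11 measured, median -0.21) had 0, with VLDLR, the receptor for very low density lipoprotein and for urokinase complexes, at 1.41 (limma adjusted p = 0.0731), which without both arrays was 1.41 and passed (0.00832). The substrates of plasmin and urokinase (14 measured, median 0.08) had 0. Of these FN1, fibronectin, read 12.94, 12.93 and 8.40 in control arrays and 14.13, 12.82 and 13.75 in MBD2 arrays, a log2 difference of 2.14 (limma adjusted p = 0.437). Control array 3 was far under the other 5 arrays there, as at SERPINE2, and without it the difference was 0.63.

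Of the other annexins (10 measured, median 0.37), 2 rose and 0 fell. ANXA5 went from 11.51 ± 0.34 to 12.75 ± 0.17 (SD, n = 3 each), a log2 difference of 1.24 (standard error 0.20, limma adjusted p = 0.0397). ANXA6 had a log2 difference of 0.98 (standard error 0.17, limma adjusted p = 0.0429), but -0.02 at a probe set without a shared-sequence ending and 0.48 over the mean of its probe sets. Both encode calcium-dependent membrane-binding proteins. Of the 16 transcription factors known at the PLAU and PLAUR promoters (median -0.14), 0 rose and 1 fell. ETS2, a factor of the ETS family, went from 10.38 ± 0.18 to 9.22 ± 0.23 (SD, n = 3 each), a log2 difference of -1.16 (standard error 0.16, limma adjusted p = 0.0305). The calls of all 5 genes were lost, one at a time, when any of control arrays 1 and 2 and MBD2 arrays 2 and 3 was left out, with adjusted p up to 0.0838 for ST14, 0.140 for ETS2, 0.160 for ENO1, 0.173 for ANXA5 and 0.178 for ANXA6, and those of ENO1 and ANXA6 also without control array 3.

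**Figure D4:**
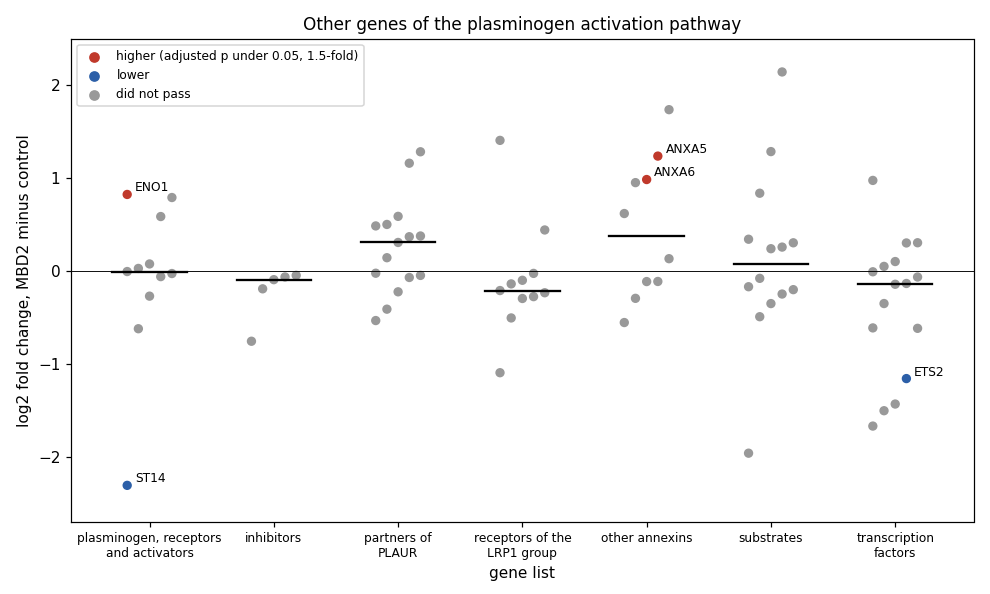
Log2 difference, MBD2 minus control (vertical axis), of the 82 measured genes in 7 lists, 1 point per gene, with the median of each list as a bar. The 3 red points (higher) and 2 blue points (lower) passed limma's adjusted p under 0.05 with a 1.5-fold change, and the grey points did not.

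The AP-1 genes FOS and FOSB and the early-response gene EGR1, picked after their values were seen, were uneven within the groups. FOSB read 5.95, 5.92 and 13.09 in control arrays and 5.90, 7.18 and 6.87 in MBD2 arrays, and FOS read 4.42, 4.25 and 10.36 against 4.31, 7.77 and 6.52. EGR1 read 10.18, 10.25 and 13.85 against 8.05, 11.98 and 9.72. Control array 3 was the highest of the 6 in each, and it is also the array on which the SERPINE2 and FN1 values were the lowest. The part of these genes in the values of that array was not tested.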

How the data were processed

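RNA was hybridized to 6 arrays (Affymetrix U133 Plus 2.0), 3 per group. The deposited values are RMA-normalized log2 values, for which the submitters' processing notes list RMA and affy, with no versions. RMA makes the arrays share nearly 1 distribution (median 5.24 on each, values 2.57 to 14.74), so a shift of all transcripts would be removed. Probe sets were named from the platform annotation, and 19735 of 19777 Entrez identifiers were in the RefSeq table. The 1801 probe sets with several symbols, 11721 with none and 62 controls were left out. Groups were compared with limma 3.58.1 in R 4.3.3 (lmFit on group, eBayes, two-sided), with Benjamini-Hochberg adjustment over 41091 probe sets, or over 19775 genes at the probe set with the highest mean. Called means an adjusted p under 0.05 and at least 1.5-fold. The scripts were tested on simulated data. Near background means within 0.5 of the highest value for a transcript that was not added. The precision is limited by the number of arrays.

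Every member was described at each probe set. Of each pathway list, every called gene was named, up to 5, and otherwise the gene with the largest absolute difference. The members and lists were chosen with earlier results of these data known. For the genes most like each member, Pearson's r over the 6 arrays was used. The alternatives were a mean of at least 5, no probe sets with an ending for shared sequence, a further quantile normalization, centring on housekeeping genes, trend and robust fitting in eBayes, a replicate block, near-identical arrays averaged, control array 3 and MBD2 array 1 left out, each array left out, other thresholds and, for genes, the mean of all probe sets.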

Additional observations from a re-analysis of the deposited data

How the results depend on the processing

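All 6 arrays gave 0 called probe sets of these genes in each direction. Leaving out control array 3 and MBD2 array 1 gave 2 higher and 4 lower, in a fit that called 25.5% of all probe sets, and an unadjusted p under 0.05 with 1.5-fold gave 1 and 3 (5.84% and 4.18% of all). Leaving out 1 array gave 0 to 2 higher and 0 to 2 lower, with calls without MBD2 array 1 alone, where 13.5% of all probe sets were called. The remaining settings gave 0. For the pathway genes, 3 higher and 2 lower became 15 and 20 without those 2 arrays, when 27.4% of all genes were called, 9 and 5 at the unadjusted p (1242 and 1034 of all 19775 genes), and 0 and 0 with near-identical arrays averaged. Without shared-sequence endings, with housekeeping centring, with trend and robust fitting, or with the mean of all probe sets 1 was higher, and trend and robust fitting left 1 lower. Leaving out 1 array gave 0 to 8 higher and 0 to 4 lower, the highest of each without MBD2 array 1, where 15.3% of all genes were called. Signs turned at PLAU 205479_s_at (-0.21 without both arrays, leave-one-out range -0.013 to 0.39), at LRP1 200785_s_at (-0.096 with housekeeping centring, -0.0091 with further quantile normalization, -0.054 with averaged arrays, leave-one-out range -0.063 to 0.12), at LRP1 1569042_at (-0.030 with housekeeping centring) and at ANXA6 (-0.018 without shared-sequence endings). Housekeeping centring subtracts 1 value per array, so every log2 difference moved by the same amount. The median of all probe sets went from -0.0047 to -0.12, and the LRP1 signs under this setting turned with that shift. Relative to the shift no direction could turn, so this setting is no check of direction. The turned ANXA6 value comes from another probe set. The cause of the remaining turns was not tested.

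Whether replicate numbers pair the arrays could not be told. The deviations of same-numbered arrays correlated at 0.17, -0.27 and 0.21. The highest correlation was between differently numbered arrays, control array 2 and MBD2 array 1, at 0.29. Control array 3 also correlated with MBD2 array 2, at 0.24. Control arrays 1 and 2 were nearly alike, as were MBD2 arrays 2 and 3, so these values cannot decide it. With the replicate block the pathway counts were 0 higher and 1 lower, and no member was called. The number of arrays and the near-background level of 4 of the 16 probe sets limit what can be seen.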

Other observations

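For each gene at its brightest probe set, the genes with the most similar pattern over the 6 arrays were listed among 13722 genes with a mean of at least 5. These are descriptions from 6 points, 2 pairs of which are nearly the same array. SERPINE2 was most like ABI3BP (Pearson's r = 0.998) and THSD4 (0.998), and 113 genes had an r over 0.95. ANXA2 was most like SHB (0.998) and CDR2 (0.997), with 210 genes over that value. PLAUR was most like ZNF843 (0.995) and GPR137 (0.993), with 189. LRP1 was most like CLCN5 (0.997) and ADAM33 (0.996), with 213. PLAU was most like SLC16A4 (0.992) and POPDC1 (0.992), with 80. PLAT was most like WTIP (0.994) and SUPT7L (0.982), with 24.

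One further probe set, 201077_s_at, is annotated to both SNU13 and ANXA2 and was left out for its several symbols. It read 10.72, 10.56 and 11.20 in control arrays and 10.11, 11.49 and 11.42 in MBD2 arrays, with overlapping groups, an order unlike that of the 3 bright ANXA2 probe sets.

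Among the leukocyte markers CD14, a receptor for lipopolysaccharide, fell, with 10.07, 9.88 and 10.79 in control arrays and 8.27, 6.70 and 6.57 in MBD2 arrays, a log2 difference of -3.07 (limma adjusted p = 0.0416). The groups did not overlap. PTPRC, which marks leukocytes as a class, was near background on every array.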
